A study of Homo sapiens with 18 samples.

Results

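The comparison set 5 colorectal cancer cell lines widely reported as microsatellite-unstable (HCT116, KM12, RKO, SW48 and LS180) against 8 widely reported as microsatellite-stable (SNUC1, HT55, SW948, SW1463, LS513, CL40, COLO320HSR and NCIH716). The groups were chosen by line name. The labels give no microsatellite status and no repeat was typed here, so the status itself was not measured. The 13 lines came from a panel of 18; RCM1, MDST8, CAR1, HUTU80 and OUMS23 entered no comparison. Each line is an established culture grown from 1 tumour and was measured on 1 array, without any treatment named in the labels. The replicates of a group are therefore different lines, and p-values measure the spread between lines. Per the labels, 7 of the 13 lines were grown in DMEM/F-12 (3 unstable, 4 stable) and 6 in RPMI-1640 (2 unstable, 4 stable). Values are log2 intensities, in which a difference of 1 is a doubling, and all differences are unstable minus stable.

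DNA mismatch repair removes mispaired bases and slipped repeats left behind by replication. Cells that lose it gain and lose units in short repeats, which is called microsatellite instability, and coding repeats that shift out of frame can leave transcripts open to nonsense-mediated decay. In the colon, unstable cancers are known for a near-diploid karyotype, poor differentiation, mucin production and location in the right colon. Stable cancers more often gain 13q and 20q and lose 18q.

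EPM2AIP1, which encodes a laforin-interacting protein and was taken as the marker of the split, did not follow it in every line. It stood at 8.15 in HCT116, 4.38 in KM12, 2.76 in RKO, 3.13 in SW48 and 7.93 in LS180. The stable lines ran from 2.97 through a median of 8.41 to 8.67. KM12, RKO and SW48 were thus near or under the background level of 4.22, while HCT116 and LS180 lay at the level of the stable lines. CL40, grouped as stable, stood at 2.97, and its nearest neighbour among the stable lines was LS513 at 7.11. The difference was -2.32 ± 1.14 (SE, n = 5 and 8), with a limma adjusted p of 0.297 over 11679 genes and an exact two-sided permutation p of 0.120 over the 1287 ways to choose the groups. Without CL40 it was -2.98, with a limma adjusted p of 0.140. The marker therefore does not separate the groups as given, and the groups are named by reported status below.

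**Figure D1:**
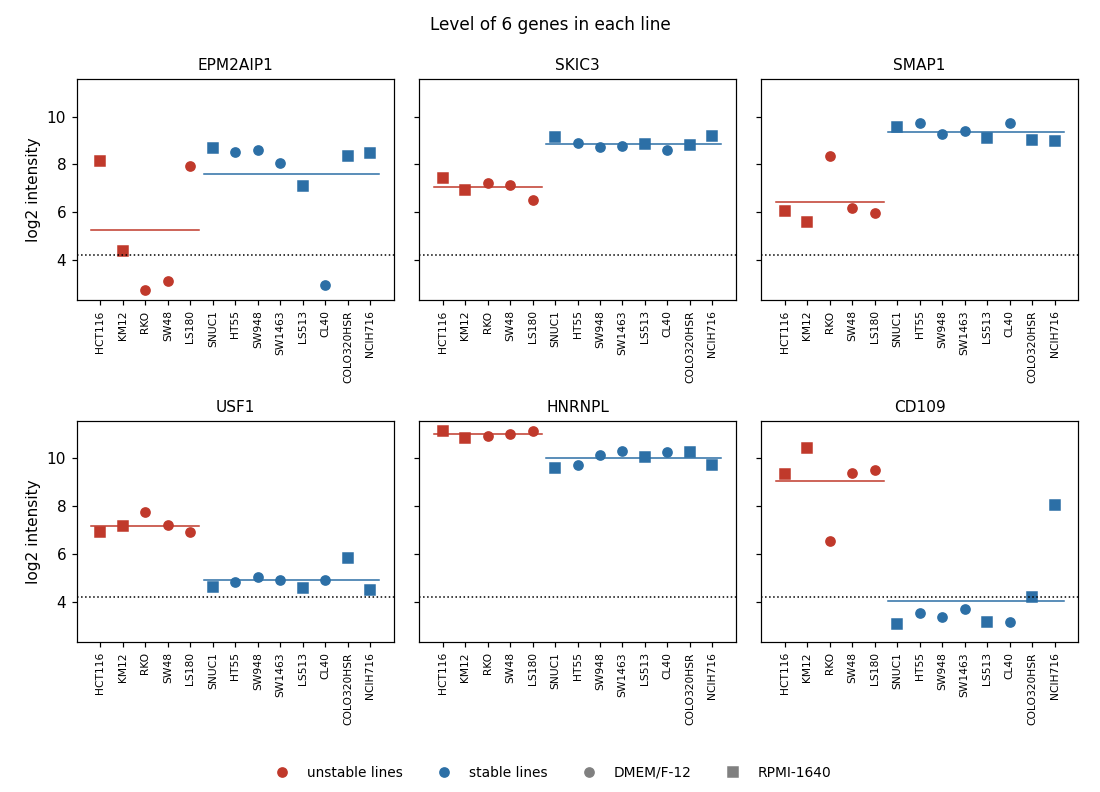
Level of 6 genes in each line (log2 intensity; red, 5 unstable lines; blue, 8 stable lines; circles DMEM/F-12, squares RPMI-1640). Solid lines are group means and the dotted line is the background level of 4.22; EPM2AIP1 is low in 3 unstable lines and in CL40, whereas SKIC3, SMAP1, USF1 and HNRNPL do not overlap between groups.

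Epithelial identity was uneven within both groups. Of 22 epithelial junction genes tested (cadherins, claudins, desmosomal and keratin genes), the median deviation from each gene's mean over the 13 lines was -4.28 in RKO, -4.50 in COLO320HSR and -3.08 in NCIH716, and 0.39 to 1.82 in the other lines. COLO320HSR and NCIH716 are known for neuroendocrine features. The 5 neuroendocrine genes tested had a median deviation of 5.02 in NCIH716, -1.38 in COLO320HSR and at most 1.10 elsewhere. Only 2 of 11 measured leukocyte genes and 2 of 10 fibroblast genes passed the background filter, and the 2 fibroblast genes deviated by 3.02 in NCIH716 and by at most 0.57 elsewhere. An array measures a whole culture, so fewer cells with a transcript and less of it per cell cannot be told apart. Group differences are given below with and without these 3 lines where the call depends on them.

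Across all genes, 43 were higher and 22 lower in unstable lines at a limma adjusted p under 0.05, which is 0.557% of the 11679 tested (0.368% higher, 0.188% lower). At an unadjusted p under 0.05 there were 1383 higher (11.8%) and 794 lower (6.8%), together 18.6%. The median difference over all genes was 0.08, and 0.03 after the arrays were centred on their medians, which gave 29 higher and 29 lower. All 65 genes had the same sign within both media, and 58 were called with medium as a block. The 65 were called on these same lines, so that agreement of sign is no separate support. The smaller fit within DMEM/F-12 called 8 of them, and that within RPMI-1640 called 1. Leaving out single lines moved the count strongly: 5 higher and 7 lower without HCT116, 7 and 8 without SW48, 10 and 11 without RKO, but 236 and 157 without COLO320HSR and 87 and 61 without NCIH716. Without both COLO320HSR and NCIH716, 618 genes were higher and 495 lower, and all 65 were among them. Without RKO as well the counts were 323 and 302, and 63 of the 65 were called. Counts of list members called in those fits are to be read beside these totals, not beside 43 and 22. Of the 65, 10 were called in all 13 fits that leave out 1 line: SKIC3, TRIM44, ZMYM2, SMAP1, TXNDC9, MAP3K2 and TULP3 (lower) and USF1, ULBP3 and HNRNPL (higher).

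**Figure D2:**
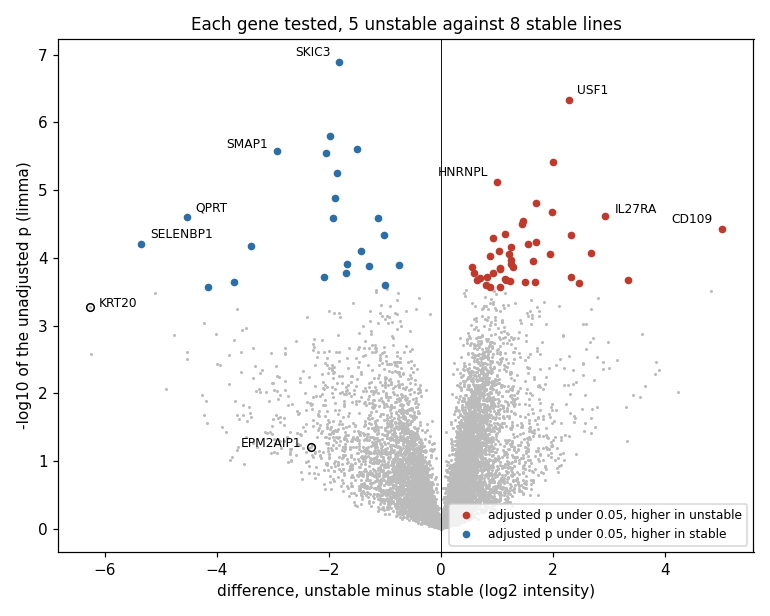
Each of the 11679 genes tested by its difference, unstable minus stable (log2 intensity, x axis), and the -log10 of its unadjusted limma p (y axis). Filled points are the 43 genes higher (red) and 22 lower (blue) at an adjusted p under 0.05; KRT20 and EPM2AIP1 (open circles) differ by several log2 units without reaching it.

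SKIC3, the scaffold subunit of the SKI complex that feeds RNA to the cytoplasmic exosome, had the smallest p. It stood at 7.44 in HCT116, 6.92 in KM12, 7.23 in RKO, 7.16 in SW48 and 6.52 in LS180, against 8.61 to 9.20 (median 8.83) in the stable lines. All 5 unstable lines lay below all 8 stable lines, as in 0.454% of the genes tested in this direction and 1.63% in both. The difference was -1.82 ± 0.18 (SE), a 3.53-fold lower level, with a limma adjusted p of 0.0015. Its 2 other probe sets were lower too, both at an unadjusted p under 0.05.

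SMAP1, a GTPase-activating protein of endocytosis for which frameshifts in a coding repeat have been reported in unstable cancers, was 7.62-fold lower. It was 6.07 in HCT116, 5.61 in KM12, 8.34 in RKO, 6.16 in SW48 and 5.97 in LS180. The stable lines had a median of 9.35 and reached 9.73. RKO stood apart from the other unstable lines but still below every stable line. The difference was -2.93 ± 0.38 (SE; limma adjusted p = 0.00558). SMAP1 was not on the list of coding repeat genes below.

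TRIM44, ZMYM2, TXNDC9 and MAP3K2 were also among the lower genes of smallest p, and none of them overlapped between groups. TRIM44, a tripartite motif protein that removes ubiquitin, ran from 6.32 in RKO to 7.85 in SW48, against 8.59 to 9.42 in stable lines (difference -1.98 ± 0.24, limma adjusted p = 0.00558). TXNDC9, a thioredoxin domain protein that binds the chaperonin, ran from 6.66 in SW48 to 8.48 in RKO, against 9.34 to 10.14 (-2.05 ± 0.27, limma adjusted p = 0.00558), although 1 of its 2 other probe sets pointed the opposite way. MAP3K2, a kinase kinase kinase of the stress pathways, ran from 6.24 in LS180 to 7.69 in SW48, against 8.31 to 9.39 (-1.85 ± 0.26, limma adjusted p = 0.00816). TULP3, a tubby-like adaptor that carries receptors into the cilium, was lower by 1.89 on the probe set used (limma adjusted p = 0.0151), and its 1 other probe set pointed the opposite way.

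CAMKK2, UBL3 and UGP2 also separated the groups. CAMKK2, a calcium-dependent kinase that activates AMPK, was 5.72 to 6.68 in unstable and 7.49 to 8.84 in stable lines (-1.93 ± 0.31, limma adjusted p = 0.0188). The 2 other probe sets of CAMKK2 were lower too, but neither at an unadjusted p under 0.05. UGP2, which makes UDP-glucose for glycogen and glycans, was 8.96 to 10.03 against 10.45 or more (-1.01 ± 0.17, limma adjusted p = 0.0245). The limma adjusted p of CAMKK2 and UBL3 rose to as much as 0.070 without HCT116 or without SW48, and that of UGP2 to 0.081 without HCT116 or without RKO, which ended the calls.

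SELENBP1 and QPRT had the largest negative differences among the called genes, and both were near or under background in 4 of 5 unstable lines. QPRT, which makes nicotinic acid mononucleotide on the way from tryptophan to NAD, stood at 3.87 in HCT116, 3.85 in KM12, 3.11 in RKO, 3.62 in SW48 and 8.04 in LS180. The stable lines ran from 7.70 through 8.88 to 10.21. Thus 4 unstable lines were under background and LS180 lay within the stable range. The difference was -4.54 ± 0.73 (SE; limma adjusted p = 0.0188), and the adjusted p reached 0.070 without HCT116, RKO or SW48. SELENBP1, a selenium-binding methanethiol oxidase of mature colon epithelium, was 2.87 to 4.41 in HCT116, KM12, RKO and SW48 and 8.80 in LS180, against 8.58 to 12.33 in stable lines (-5.36 ± 0.94, limma adjusted p = 0.0282). Its adjusted p rose to as much as 0.097 without SNUC1, HT55, HCT116, KM12, RKO or SW48.

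USF1, an E-box transcription factor, was the gene of smallest p among those higher in unstable lines. It was 6.91 in HCT116, 7.17 in KM12, 7.76 in RKO, 7.21 in SW48 and 6.90 in LS180, and 4.47 to 5.82 (median 4.87) in stable lines. The groups did not overlap, as in 1.17% of the genes tested in this direction, and COLO320HSR at 5.82 was the stable line nearest to the unstable ones. The difference was 2.30 ± 0.25 (SE; 4.91-fold; limma adjusted p = 0.0027).

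HNRNPL, a splicing regulator that binds CA repeats, was higher by less but with little spread. It stood at 11.15 in HCT116, 10.84 in KM12, 10.96 in RKO, 11.04 in SW48 and 11.15 in LS180, against 9.59 to 10.30 in stable lines. The difference was 1.01 ± 0.14 (SE; 2.02-fold; limma adjusted p = 0.00998). ULBP3, a stress-induced ligand of the NKG2D receptor of killer cells, was above background in all 5 unstable lines (4.56 to 5.93) and in none of the 8 stable lines (2.63 to 3.90). Against the background level, set here as the floor of a dim group, its level was at least 2.04-fold higher (limma adjusted p = 0.00643).

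CD109, a GPI-anchored protein that binds TGF-beta and restrains its signalling, had the largest rise among the called genes. It was 9.34 in HCT116, 10.43 in KM12, 6.54 in RKO, 9.40 in SW48 and 9.53 in LS180. In stable lines it ran from 3.08 through 3.44 to 8.03, and NCIH716 at 8.03 was the only stable line above background. The groups overlapped through RKO and NCIH716. The difference was 5.02 ± 0.84 (SE; limma adjusted p = 0.0232), and the adjusted p rose to as much as 0.080 without SW1463, HCT116, KM12 or SW48.

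Other genes higher in unstable lines came from several functions. IL27RA, a cytokine receptor subunit, was 6.52 to 8.46 against 3.48 to 6.23 (2.94 ± 0.47, limma adjusted p = 0.0188). SERPINH1, the collagen chaperone HSP47, was 9.12 to 10.19 against 7.32 to 8.54 (1.47 ± 0.24, limma adjusted p = 0.0197). MRPL2, a mitochondrial ribosomal protein, was 7.77 to 9.09 against 6.62 to 7.26 (1.46 ± 0.24, limma adjusted p = 0.0203). These 3 did not overlap between groups; the adjusted p of the first 2 reached 0.056 and 0.070 when HCT116, RKO or SW48 was left out, and that of MRPL2 reached 0.070 without HCT116 or KM12. NOC3L, a ribosome assembly factor, PISD, which makes phosphatidylethanolamine in mitochondria, and UBASH3B, a tyrosine phosphatase, were higher by 0.93, 1.15 and 2.33; all 3 were lost without SNUC1, HCT116 or RKO, with adjusted p up to 0.094. KCNRG, a potassium channel regulator gene of chromosome 13, was higher by 1.99 (limma adjusted p = 0.0188), against the direction of most of its chromosome, and its adjusted p was 0.056 without SW48. CDRT4 was higher by 1.70, with an adjusted p of 0.052 without HCT116. The 43 also held NEIL2, a glycosylase of base excision repair (1.65, limma adjusted p = 0.0363), H2AX, the histone marked at DNA breaks (0.65, limma adjusted p = 0.0451), PRIM2, a primase subunit (0.93, limma adjusted p = 0.0418), and MTAP, which salvages methylthioadenosine (1.94, limma adjusted p = 0.031). These 4 were chosen after their values were seen, and each was lost without SW1463, HCT116, KM12, RKO or SW48, with adjusted p up to 0.13.

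S100A2, a calcium-binding protein of squamous and wounded epithelium, was the 1 gene whose groups did not overlap with a difference of 3 or more. It was 8.02 in HCT116, 8.97 in KM12, 13.003 in RKO, 11.41 in SW48 and 7.54 in LS180, against 3.36 to 7.35 in stable lines. With SDs of 2.33 and 1.22 the difference of 3.60 ± 0.89 (SE) had a limma adjusted p of 0.0849.

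Genes known to carry coding repeats that shift frame in unstable cancers were measured as a list of 37. None reached a limma adjusted p under 0.05. At an unadjusted p under 0.05, 10 were lower and 1 was higher, or 27.0% and 2.70% of the list against 6.8% and 11.8% of all genes. Their median difference was -0.40, and 28 of 37 were negative. The median deviation of the list in each line was -0.45 in RKO, -0.32 in LS180, -0.05 in KM12, 0.03 in HCT116 and 0.04 in SW48, and 0.09 to 0.28 in stable lines. The ranges of the groups did not overlap, but HCT116 and SW48 lay close to the stable lines. The median was -0.49 within DMEM/F-12, -0.14 within RPMI-1640, -0.35 without COLO320HSR and NCIH716 and -0.23 without RKO as well. In both of the last fits 3 members were lower and 1 higher at a limma adjusted p under 0.05. Over all 11679 genes those fits called 495 and 302 lower, and 618 and 323 higher.

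Individual members differed in which lines were low. PRDM2, a histone methyltransferase and tumour suppressor, was lower in every unstable line (6.53 to 7.47) than in any stable line (7.65 to 8.51), by 0.95 ± 0.22 (SE; limma adjusted p = 0.0698, and 0.049 without COLO320HSR). B2M, the light chain of class I HLA, was 12.06 in HCT116, 12.53 in KM12, 12.40 in RKO, 11.64 in SW48 and 12.16 in LS180, against 12.30 to 13.21 (difference -0.72 ± 0.17, limma adjusted p = 0.073, and 0.038 at the lowest without SW948 or COLO320HSR). Both lie just outside the threshold with all 13 lines, and the limma adjusted p of B2M rose to 0.174 without HCT116. SEC63, a subunit of the translocon, was 6.11 in RKO and 7.98 to 8.72 in the other unstable lines, against 8.70 to 9.55 (-1.23 ± 0.36, limma adjusted p = 0.109). MARCKS, an actin-binding substrate of protein kinase C, was 4.52 in LS180 and 7.76 to 9.37 in the other unstable lines, against 8.92 to 11.37. RAD50 and MRE11, partners in the complex that senses double-strand breaks, differed by -1.10 ± 0.33 and -0.97 ± 0.35. RAD50 was lowest in KM12 (6.78), and MRE11 was lowest in LS180 (5.75). KMT2C, a histone methyltransferase, was lowest in HCT116 (6.55) and differed by -0.92 ± 0.28. The limma adjusted p of these 4 lay between 0.116 and 0.168.

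The best known targets of frameshift were not among the genes of small p. TGFBR2, the type II receptor of TGF-beta, was 8.04 in HCT116, 9.49 in KM12, 6.93 in RKO, 8.68 in SW48 and 7.81 in LS180. In stable lines it ran from 5.22 in COLO320HSR through 9.80 to 10.72, and NCIH716 stood at 6.50. The difference was -0.78 ± 0.87 (SE; limma adjusted p = 0.662), -2.11 within DMEM/F-12 and 0.73 within RPMI-1640. Without COLO320HSR and NCIH716 its limma adjusted p was 0.018. Both of these stable lines lay below every unstable line for TGFBR2. Leaving them out favours a small p, so that value is no separate support. ACVR2A, the activin receptor, differed by -0.08 ± 0.40, BAX, a pore-forming mediator of apoptosis, by -0.53 ± 0.40, and RPL22, a ribosomal protein, by -0.08 ± 0.09, with limma adjusted p between 0.491 and 0.937. For ACVR2A and RPL22 the sign was positive within RPMI-1640. These 4 and KMT2C and MARCKS were chosen after their values were seen.

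**Figure D3:**
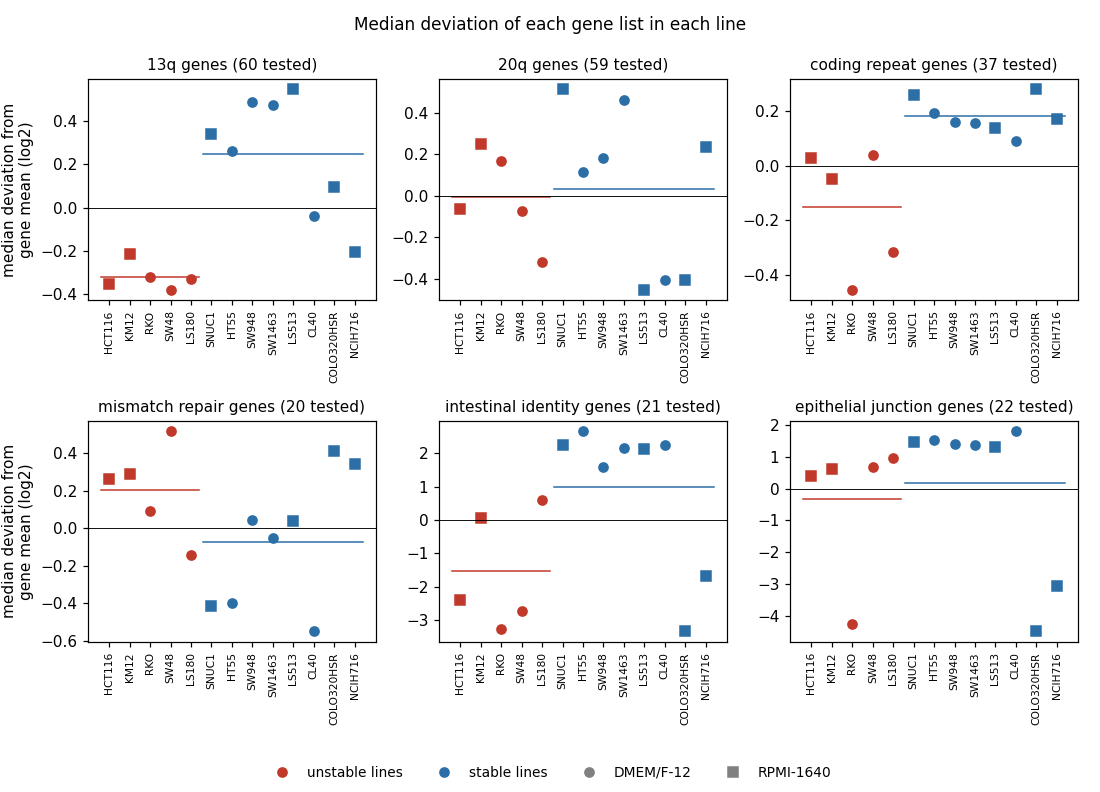
Median deviation of 6 gene lists in each line: for each gene the value minus its mean over the 13 lines, then the median over the list (log2; colours and shapes as in the plot of 6 genes; solid lines are group means). The 13q and coding repeat lists do not overlap between groups, 20q does, and RKO, COLO320HSR and NCIH716 stand far below the rest in epithelial junction genes.

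Genes of chromosome 13 were lower in unstable lines along the whole chromosome. Of 60 genes of 13q on the list, 56 were negative, with a median of -0.57 against 0.08 for all genes. At an unadjusted p under 0.05, 32 (53.3%, against 6.8% of all genes) were lower and 0 (against 11.8%) higher; at a limma adjusted p under 0.05, 2 were lower, ZMYM2 and STK24. The median deviation of the list was -0.35 in HCT116, -0.21 in KM12, -0.32 in RKO, -0.38 in SW48 and -0.33 in LS180. Stable lines ran from -0.21 in NCIH716 through 0.30 to 0.55 in LS513, with CL40 at -0.04 and COLO320HSR at 0.10. The 5 unstable lines were alike, whereas the stable lines were spread and NCIH716 lay at the level of KM12. The median difference was -0.63 within DMEM/F-12, -0.46 within RPMI-1640 and -0.73 without RKO, COLO320HSR and NCIH716. In that last fit 16 of the 60 were lower and 1 higher at a limma adjusted p under 0.05, and with RKO kept 22 and 1. Over all 11679 genes, 302 were lower and 323 higher in that fit, and 495 and 618 with RKO kept. Copy number was not measured.

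ZMYM2, a zinc finger protein of histone deacetylase complexes, was 7.44 to 8.34 in unstable and 9.01 to 9.82 in stable lines (-1.50 ± 0.19, limma adjusted p = 0.00558), and its 3 other probe sets were lower too. UBL3, a ubiquitin-like membrane anchor, was 7.89 to 8.41 against 8.79 to 9.75 (-1.12 ± 0.18, limma adjusted p = 0.0188). STK24, a sterile 20 kinase, was 10.12 to 10.89 against 11.23 to 11.68 (-0.75 ± 0.14, limma adjusted p = 0.0383). COL4A2, a basement membrane collagen chain, was above background only in LS180 (5.63) among unstable lines, against 4.87 to 8.93 (-3.39 ± 0.60, limma adjusted p = 0.0286). DHRS12 and COG6 completed the 6 called lower on this chromosome, with differences of -2.09 and -0.999. Each of STK24, COL4A2, DHRS12 and COG6 was lost in 8 to 11 of the 13 fits without 1 line, among them those without SNUC1, HT55, SW1463, CL40, HCT116, RKO or SW48, with adjusted p up to 0.13. ERCC5, a nuclease of nucleotide excision repair, differed by -1.27 ± 0.30 (limma adjusted p = 0.0689, and 0.024 without COLO320HSR), and CDK8, a Mediator kinase and colon oncogene, by -0.57 ± 0.19 (limma adjusted p = 0.134).

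Over all 217 genes tested on chromosome 13, 183 were negative, 85 (39.2%, against 6.8% of all genes) were lower and 1 was higher at an unadjusted p under 0.05. In 5 equal parts by gene order the median differences were -0.50, -0.67, -0.59, -0.56 and -0.48, all of them negative. Chromosome 22 was the next to depart from the rest, in the opposite direction: the median was 0.41 over 272 genes, with 90 (33.1%, against 11.8% of all genes) higher and 10 lower. Its median deviation was 0.17 to 0.36 in unstable lines and -0.38 to 0.04 in stable lines. Called genes there included DGCR8, the partner of Drosha in microRNA processing (1.56 ± 0.27, limma adjusted p = 0.0282), TOMM22, a mitochondrial import receptor (0.88 ± 0.16, limma adjusted p = 0.0318), PISD, RANBP1 (0.59 ± 0.12) and UFD1 (0.81 ± 0.16). All 5 were lost without SNUC1, HCT116, KM12, RKO or SW48, with adjusted p up to 0.13. Chromosome 4 had a median of 0.33 over 425 genes, with 103 higher (24.2%) and 11 lower (2.59%). Chromosome 8 had 0.28 over 414, with 77 (18.6%) and 10 (2.42%). Chromosome 10 had 0.25 over 455, with 92 (20.2%) and 26 (5.71%). Over all genes, 11.8% were higher and 6.8% lower. Chromosome 8 fell to 0.11 without RKO, COLO320HSR and NCIH716.

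Genes of 20q and 18q did less. The 59 genes of 20q had a median of -0.02, with 1 lower and 0 higher at an unadjusted p under 0.05, and the median was -0.17 within DMEM/F-12 and 0.15 within RPMI-1640. Their median deviation split the stable lines: SNUC1 (0.51) and SW1463 (0.46) were high, and LS513 (-0.45), COLO320HSR (-0.41) and CL40 (-0.40) were low. AURKA, a mitotic kinase of 20q, differed by -0.19 ± 0.23. The 45 genes of 18q had a median of 0.31, with 9 higher (11.8% of all genes were) and 1 lower. The median was 0.10 within RPMI-1640 and 0.18 without COLO320HSR and NCIH716. In median deviation KM12 (-0.39) lay at the low end of the stable lines (-0.38 to 0.20), and the other unstable lines were at 0.20 to 0.36. SMAD4, the common mediator of TGF-beta signals on 18q, differed by 0.49 ± 0.36 (limma adjusted p = 0.490). BCL2, the apoptosis inhibitor, was above background in RKO (4.86), SW48 (5.75) and LS180 (5.24) and in none of the 8 stable lines (limma adjusted p = 0.104). Those are the 3 unstable lines grown in DMEM/F-12. Its difference was 1.92 within DMEM/F-12 and 0.17 within RPMI-1640.

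**Figure D4:**
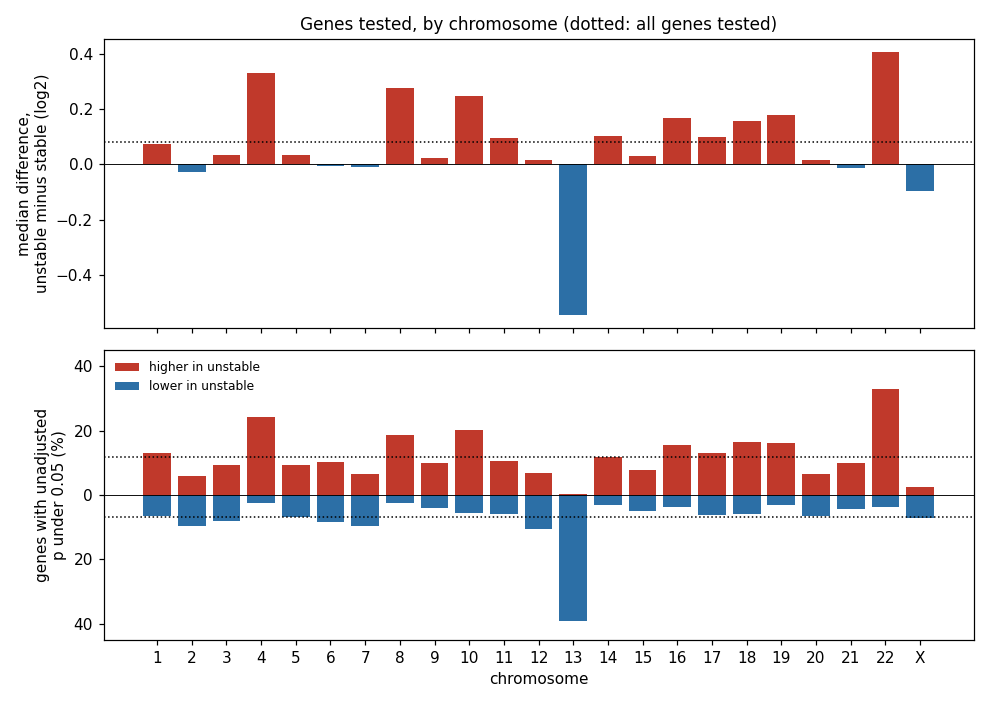
Top, median difference of the genes tested on each chromosome, unstable minus stable (log2). Bottom, percentage of them higher (red, upward) and lower (blue, downward) in unstable lines at an unadjusted p under 0.05; dotted lines give all genes tested. Chromosome 13 is lower (median -0.55) and chromosome 22 higher (0.41) than the rest.

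Genes of the mature intestinal cell were the widest apart, but not evenly over lines. Of 21 intestinal identity genes tested, 20 were negative with a median of -2.69. At an unadjusted p under 0.05, 9 were lower (42.9%, against 6.8% of all genes) and 1 higher, and none reached an adjusted p under 0.05. The median deviation was -3.26 in RKO, -2.73 in SW48, -2.40 in HCT116, 0.06 in KM12 and 0.60 in LS180. Among stable lines COLO320HSR (-3.35) and NCIH716 (-1.68) were as low as the unstable lines, and the others lay between 1.59 and 2.67. Without those 2 lines 13 of the 21 were lower and 1 higher at a limma adjusted p under 0.05. Without RKO as well 8 were lower and 0 higher. Over all 11679 genes those fits called 495 and 302 lower. Both fits leave out the stable lines that were low in this list, so their counts are no separate support. The median was -4.25 within DMEM/F-12, with 16 lower at an unadjusted p under 0.05, and -1.56 within RPMI-1640, with 1 lower.

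KRT20, the keratin of surface enterocytes and goblet cells, was 4.17 in HCT116, 3.87 in KM12, 3.40 in RKO, 3.16 in SW48 and 4.66 in LS180. It was 11.43 to 12.34 in 6 stable lines, 4.63 in COLO320HSR and 4.87 in NCIH716. Only those 2 stable lines were near the unstable ones. The difference was -6.26 ± 1.39 (SE, limma adjusted p = 0.0615). The limma adjusted p was 0.012 at the lowest without 1 of these lines and 5.02e-08 without both. Leaving out the stable lines that were low favours a small p, so these values and those like them below are no separate support. FABP1, the fatty acid carrier of enterocytes, had the same shape, with 3.04 to 4.50 in unstable lines and 2.93 in COLO320HSR, 3.26 in NCIH716 and 11.16 to 13.02 in the other stable lines (-6.24 ± 1.70, limma adjusted p = 0.0964, 0.022 at the lowest without 1 of them, and 1.95e-07 without both). GUCY2C, the guanylin receptor, differed by -4.01 ± 1.00 (limma adjusted p = 0.085, and 0.0056 without COLO320HSR). CDH17, intestinal cadherin, was under background in HCT116, RKO and SW48 but 9.26 in KM12 and 10.08 in LS180, against 6.23 to 11.62 (-4.53 ± 1.26, limma adjusted p = 0.100). Its limma adjusted p was 0.032 without COLO320HSR, the 1 such fit that called it, and rose to 0.240 without HCT116. VIL1, the brush border villin, followed the same lines, with 8.18 in KM12 and 10.43 in LS180. CDX2, the master regulator of intestinal fate, which lies on 13q, was 5.32 to 7.68 in unstable and 6.99 to 11.44 in stable lines (-2.06 ± 0.72, limma adjusted p = 0.153).

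MYO1A, MYO7B and CEACAM1, which were not on that list and were named after their values were seen, were called lower. MYO1A, the brush border myosin, was under background in all 5 unstable lines (2.89 to 4.06) and at least 7.01-fold lower than in stable lines, of which COLO320HSR (3.40) was under background too (limma adjusted p = 0.0451). MYO7B, the myosin of microvillus tips, was 4.09 to 4.65 against 4.65 to 5.94 (-1.28 ± 0.24, limma adjusted p = 0.0383). CEACAM1, an adhesion molecule of the apical membrane, was 3.23 to 6.11 against 5.49 to 9.94 (-4.16 ± 0.85, limma adjusted p = 0.0492). MYO1A remained called only in the fits without COLO320HSR or without NCIH716, and MYO7B and CEACAM1 only in these and in the fit without LS180; elsewhere their adjusted p rose to as much as 0.13. The goblet and secretory list had 3 of 21 lower (14.3%, against 6.8% of all genes), with a median of -1.10 and -0.58 within RPMI-1640. Without COLO320HSR and NCIH716, 4 were lower at a limma adjusted p under 0.05, and without RKO as well 1 was. Over all 11679 genes those fits called 495 and 302 lower. CAV1, the coat protein of caveolae, went the other way: it was 11.79 in HCT116, 8.86 in KM12, 6.56 in RKO, 10.67 in SW48 and 8.65 in LS180, and 3.36 to 4.11 in 7 stable lines. CL40 alone among stable lines held it, at 9.05. The difference was 4.83 ± 1.00 (SE, limma adjusted p = 0.0508). Over the 13 fits without 1 line the limma adjusted p ran from 0.013 without CL40 to 0.141 without SW48. CAV1 was called in 2 of them, those without CL40 or COLO320HSR.

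**Figure D5:**
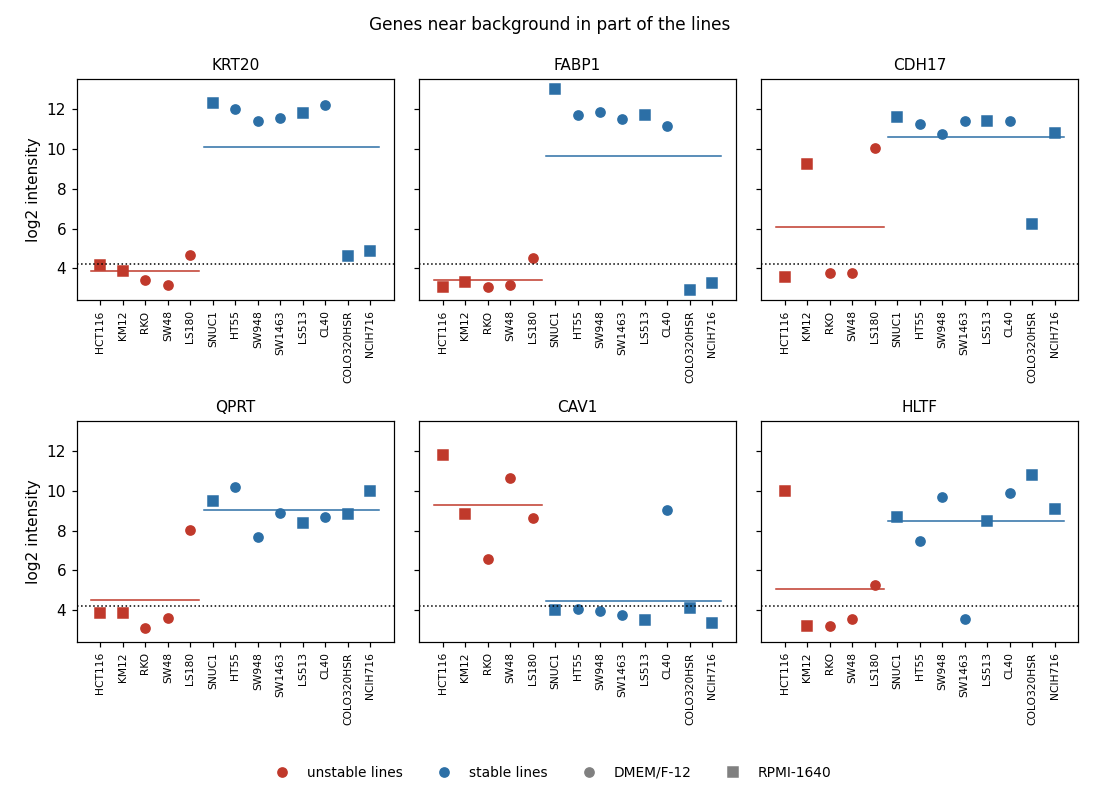
Level of 6 genes that are near background in part of the lines (log2 intensity; colours, shapes and lines as in the plot of 6 genes). KRT20 and FABP1 are high in 6 stable lines alone, QPRT is low in 4 unstable lines, CAV1 is low in 7 stable lines, and HLTF is low in KM12, RKO, SW48 and SW1463.

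Promoters of 4 of these on and off genes are shown because some hold few CG pairs and others many. They hold 300 bases, 250 before and 50 after the RefSeq start (GRCh38.p14), and every CG pair is in capitals.

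KRT20 (chr17:40885193-40885492, minus strand): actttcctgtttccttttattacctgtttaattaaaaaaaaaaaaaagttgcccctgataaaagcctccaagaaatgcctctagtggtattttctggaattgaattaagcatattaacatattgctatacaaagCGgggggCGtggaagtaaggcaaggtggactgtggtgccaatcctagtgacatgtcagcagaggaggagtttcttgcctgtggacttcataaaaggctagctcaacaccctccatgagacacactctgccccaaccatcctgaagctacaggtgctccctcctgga

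QPRT (chr16:29678930-29679229, plus strand): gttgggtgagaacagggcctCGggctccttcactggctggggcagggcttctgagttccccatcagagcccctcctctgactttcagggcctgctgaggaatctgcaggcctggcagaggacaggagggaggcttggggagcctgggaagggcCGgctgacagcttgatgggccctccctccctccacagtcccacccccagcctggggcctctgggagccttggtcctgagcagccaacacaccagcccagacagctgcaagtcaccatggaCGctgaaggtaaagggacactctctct

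HLTF (chr3:149086484-149086783, minus strand): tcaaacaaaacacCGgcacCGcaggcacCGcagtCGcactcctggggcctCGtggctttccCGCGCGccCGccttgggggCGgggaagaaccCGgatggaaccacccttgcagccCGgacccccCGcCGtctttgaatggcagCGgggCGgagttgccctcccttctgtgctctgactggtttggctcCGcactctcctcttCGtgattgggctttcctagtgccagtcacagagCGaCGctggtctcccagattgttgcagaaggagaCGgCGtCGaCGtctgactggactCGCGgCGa

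CD109 (chr6:73695953-73696252, plus strand): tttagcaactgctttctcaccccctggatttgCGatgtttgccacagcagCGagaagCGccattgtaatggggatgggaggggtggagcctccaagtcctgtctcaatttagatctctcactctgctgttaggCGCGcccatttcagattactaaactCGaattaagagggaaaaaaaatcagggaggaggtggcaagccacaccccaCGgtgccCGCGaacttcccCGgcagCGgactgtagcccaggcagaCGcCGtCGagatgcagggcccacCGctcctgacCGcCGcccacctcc

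KRT20 holds 2 CG pairs and QPRT 3, against 27 in HLTF and 17 in CD109. HLTF, a helicase-like chromatin remodeller known to be methylated in colorectal cancers, was 9.99 in HCT116, 3.22 in KM12, 3.23 in RKO, 3.58 in SW48 and 5.29 in LS180, and 7.50 to 10.80 in 7 stable lines with SW1463 at 3.58 (-3.41 ± 1.29, limma adjusted p = 0.184). It was the 1 of 17 CpG island methylator genes tested with an unadjusted p under 0.05; the list's median was -0.06. No methylation was measured. Of the 9619 genes tested that have a promoter in the table, 99.6% hold at least 1 CG pair on a strand, which reads the same on both, and 80.8% were rich in them (GC above 50% and an observed over expected CpG ratio above 0.6). The share was 87.4% among genes higher at an unadjusted p under 0.05 (985 of 1127) and 70.1% among those lower (471 of 672). It was 71.4% in the genes called lower (15 of 21) and 80.6% in those called higher (25 of 31), but only 72.1% of the 43 called higher had a promoter, too few for that check to count. Among genes that differed by 3 or more at an unadjusted p under 0.05, 53.8% of the higher (7 of 13) and 29.5% of the lower (13 of 44) were rich, although only 77.2% of the lower had a promoter, which voids that share too. The difference between the directions was not tested.

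Mismatch repair genes gave no call. Of 20 tested, 6 were higher and 0 lower at an unadjusted p under 0.05 (30.0% against 11.8% of all genes), with a median of 0.39. With arrays centred on their medians the counts were 4 and 2, and without CL40 they were 4 and 1. MSH6, which senses mispairs, differed by -0.10 ± 0.28, and the sign turned within DMEM/F-12; MSH3, which senses longer loops, differed by -0.40 ± 0.20. PMS2, PMS1 and MLH3, subunits of the MutL complexes, differed by 0.43 ± 0.35, 0.50 ± 0.32 and -0.71 ± 0.36. EXO1, the exonuclease, differed by 1.05 ± 0.45 (limma adjusted p = 0.236, and 0.017 without COLO320HSR and NCIH716). RFC1, the clamp loader, was 8.62 to 9.15 against 7.68 to 8.79 (0.73 ± 0.19, limma adjusted p = 0.0936, and 0.029 without COLO320HSR). LIG1, the replicative ligase, was 7.42 to 7.89 against 6.59 to 7.57 (0.75 ± 0.21, limma adjusted p = 0.104), RPA2 differed by 0.53 ± 0.21 and PCNA, the sliding clamp, by 0.34 ± 0.14. Without COLO320HSR and NCIH716, 5 of the 20 were higher at a limma adjusted p under 0.05, and without RKO as well 2 were. Over all 11679 genes those fits called 618 and 323 higher.

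The lists of division genes and of other repair genes held no called gene and had positive medians. Of 30 genes of the spindle checkpoint and chromosome segregation, 9 were higher (30.0%, against 11.8% of all genes) and 0 lower at an unadjusted p under 0.05, with a median of 0.28. The 9 became 5 without CL40, and 5 with arrays centred on their medians. CDC20, the activator of the anaphase-promoting complex, was 10.70 to 11.51 against at most 10.56, without overlap (0.64 ± 0.15, limma adjusted p = 0.0686). Its limma adjusted p was 0.045 without COLO320HSR, the 1 such fit that called it, and rose to 0.153 without HCT116. BUB1B, the checkpoint kinase, differed by 0.45 ± 0.19. Of 31 genes of double-strand break and other repair, 6 were higher (19.4%) and 2 lower (6.45%, against 6.8% of all genes), with a median of 0.27. Without COLO320HSR and NCIH716, 4 of the 30 and 5 of the 31 were higher at a limma adjusted p under 0.05, and without RKO as well 2 of each. Those fits called 618 and 323 of all 11679 genes higher. RECQL4, a helicase, was 6.89 to 7.89 against 5.36 to 6.99 (1.33 ± 0.29, limma adjusted p = 0.0611, and at the lowest 0.038 without COLO320HSR or LS180). WRN, the helicase on which unstable cells are known to depend, was 7.34 in HCT116, 6.23 in KM12, 6.84 in RKO, 7.58 in SW48 and 6.18 in LS180, against 5.40 to 7.45. The groups overlapped, and the difference was 0.65 ± 0.37 (limma adjusted p = 0.360). Of the 7 genes of the list of RPL22, its paralogue and RecQ helicases, 2 were higher, RECQL4 and RPL22L1.

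Genes known from tumours to be higher or lower in unstable cancers were read as 2 lists. Of 20 tested from the first, 4 were higher (20%, against 11.8% of all genes) and 0 lower at an unadjusted p under 0.05. HNRNPL was called, and the list's median was 0.24, and -0.24 within DMEM/F-12. RPL22L1, the paralogue of RPL22, was 12.34 in HCT116, 12.17 in KM12, 12.56 in RKO, 12.57 in SW48 and 12.47 in LS180, against 10.22 to 12.39. Only COLO320HSR at 12.39 among the stable lines reached the unstable range (1.19 ± 0.30, limma adjusted p = 0.085, and 0.018 without it). FSCN1, an actin bundler, differed by 2.54 ± 0.60 (limma adjusted p = 0.071, and 0.032 at the lowest without COLO320HSR or KM12) and TYMS, thymidylate synthase, by 0.76 ± 0.31 (limma adjusted p = 0.214). Of 22 tested from the second, 7 were lower (31.8%, against 6.8% of all genes) and 0 higher. In this list 21 were negative, the median was -1.79, and QPRT was called. ACSL6, an acyl-CoA synthetase, was under background in all 5 unstable lines (2.73 to 4.06) and at least 5.38-fold lower (limma adjusted p = 0.0934). Its limma adjusted p was 0.028 without NCIH716, the 1 such fit that called it, and rose to 0.201 without HCT116. PPP1R14D, a phosphatase inhibitor, was under background in all 5 as well (at least 3.71-fold lower, limma adjusted p = 0.143). CAB39L, an LKB1 scaffold on 13q, was 3.97 to 5.83 against 4.84 to 10.92 (-2.93 ± 0.89, limma adjusted p = 0.117).

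The remaining lists held no called gene with all 13 lines in the fit. Over all genes, 11.8% were higher and 6.8% lower at an unadjusted p under 0.05. Of 24 WNT targets 3 were lower (12.5%) and 0 higher at an unadjusted p under 0.05, with a median of -0.74. Without COLO320HSR and NCIH716, 8 were lower and the median was -1.38, but 1382 of all 11679 genes were lower in that fit. COLO320HSR (-0.69) and NCIH716 (-1.55) were the stable lines low in the WNT list. The rise from 3 to 8 is therefore no separate support. AXIN2, the feedback inhibitor of the pathway, was 4.49 to 5.82 in HCT116, KM12 and RKO and 9.45 to 11.44 in LS180 and SW48, against 3.92 in NCIH716 and 8.89 to 11.44 in the other stable lines. Of 30 p53 targets 3 were higher and 1 lower (median 0.25); MDM2, the p53 ligase, differed by 0.54 ± 0.26 and CDKN1A, the cell cycle inhibitor p21, by 0.80 ± 0.75. MHC class I presentation had 2 of 21 lower (median -0.26) and the interferon response 2 of 21 (median -0.52), or 9.52% each. Neither list held a gene higher at an unadjusted p under 0.05. CL40 stood apart with a median deviation of 3.09 in interferon genes. Of 20 genes of MAPK output 2 were higher (11.8% of all genes were), with a median of 0.57. That median was 0.05 within DMEM/F-12 and 0.07 without COLO320HSR and NCIH716, and COLO320HSR had a median deviation of -2.11. Of 22 TGF-beta response genes 1 was higher and 1 lower (median 0.25). Epithelial junction genes had 1 of 22 lower and none higher at an unadjusted p under 0.05. Without COLO320HSR and NCIH716, 9 were lower, 3 of them at a limma adjusted p under 0.05, and without RKO as well 12 and 5. Over all 11679 genes the first of those fits had 1382 lower, 495 of them at a limma adjusted p under 0.05. The other had 1218 and 302. COLO320HSR and NCIH716 were the stable lines low in this same list, so counts without them are no separate support. Their median was -0.61 over all lines, -2.32 within DMEM/F-12 and 1.75 within RPMI-1640, where both COLO320HSR and NCIH716 were grown. Of 13 mesenchymal genes 4 were higher (30.8%) and 1 lower (7.69%), with a median of 0.29. Without COLO320HSR and NCIH716 the median was 1.73, with 3 higher and 1 lower at a limma adjusted p under 0.05, and without RKO as well it was 1.31, with the same counts. Those fits called 618 and 323 of all 11679 genes higher. COLO320HSR (0.03) and NCIH716 (0.80) had the highest median deviations of the stable lines in this list. Counts and medians without them are therefore no separate support.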

How the data were processed

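The deposited table holds log2 intensities of 54613 probe sets on 18 arrays, 1 for each line, which the authors computed by RMA (affy), per the submitters' processing notes. No version is given in the sources used here. RMA corrects background and sets every array to the same distribution, so a shift of all genes between lines cannot be seen. Array medians were 3.65 to 3.69, no array was normalized again, and no depth applies to arrays: their number limits the precision.

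Of the probe sets, 40914 carry 1 gene, 864 several and 12835 are unnamed here; those with 1 gene gave 19774 genes, each read from its probe set of highest mean. Names, chromosomes and gene order came from the platform annotation and a RefSeq table of GRCh38.p14, in which 40858 of these probe sets matched. The background level, 4.22, is the 95th percentile of 117 probe sets of 77 genes picked as restricted to other tissues, a choice not checked gene by gene. Genes above it in at least 3 of the 13 lines (11679) were fitted with limma 3.58.1 in R 4.3.3 (lmFit, eBayes with trend, group alone), with Benjamini-Hochberg adjustment over all of them and a threshold of 0.05. Lists, from general knowledge of the field, are described by counts and medians, with no set test. The fit was checked on simulated data with noise drawn independently for each gene. Shifts shared by many genes, as on chromosome 13, were not simulated, so the check does not cover them.

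Genes were named by rule: the marker, MutS and MutL family genes and EXO1, the 12 genes of smallest p per direction, the 4 of smallest p per list, and genes without overlap and a difference of 3 or more. The rule also asked for genes most correlated with EPM2AIP1; these are not given, since its values fall into separate clusters. Named after their values were seen were MARCKS, KMT2C, TGFBR2, ACVR2A, BAX, RPL22, ERCC5, COL4A2, DHRS12, COG6, CDX2, CDK8, AURKA, SMAD4, VIL1, CEACAM1, MYO1A, MYO7B, DGCR8, MTAP, NEIL2, TOMM22, RANBP1, UFD1, AXIN2, BUB1B, H2AX, PRIM2, MDM2 and CDKN1A. The groups, members and lists were chosen with earlier results of these data known. Alternatives tried were other probe set choices, filters, background levels, array scalings and variance models, all 18 lines, the medium, and fits without lines.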

Additional observations from a re-analysis of the deposited data

Results flagged for a closer look

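Among the genes named in the text, some groups held 1 line set apart from the others of its group. Chance alone gives such a line in about 1 of 20 groups. COLO320HSR stood apart among stable lines in CDH17 (6.23), CDX2 (11.44), MYO1A (3.40), MYO7B (4.65), S100A2 (3.36) and USF1 (5.82). NCIH716 did so in AXIN2 (3.92) and CD109 (8.03), CL40 in EPM2AIP1 (2.97) and CAV1 (9.05), HT55 in DGCR8 (4.72) and SW1463 in HLTF (3.58). Among unstable lines, LS180 stood apart in QPRT (8.04), SELENBP1 (8.80), FABP1 (4.50) and GUCY2C (6.72). RKO did so in SMAP1 (8.34), CD109 (6.54), SEC63 (6.11) and PPP1R14D (2.92; all 5 unstable lines were under background there, so their values have no order), KM12 in STK24 (10.12) and CDKN1A (5.95), and HCT116 in CDC20 (11.51).

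The group difference itself differed between the media for 2 of the 11679 genes, by a limma interaction of group and medium (428 at an unadjusted p under 0.05). For CBR1, a carbonyl reductase, the difference within RPMI-1640 minus that within DMEM/F-12 was -6.88 (adjusted p = 0.00444). It was listed at 2.97 in HCT116 and 3.30 in KM12 and at 8.09 to 10.47 in the other 11 lines. For TMEM200A it was 9.60 (adjusted p = 0.0186): HCT116 (8.14) and KM12 (9.49) were high and RKO (2.99), SW48 (2.49) and LS180 (3.37) under background, while stable lines ran from 2.79 to 9.50. With 2 unstable lines in RPMI-1640, medium and the identity of those lines cannot be told apart.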

How the results depend on the processing

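The counts of 43 higher and 22 lower genes depended on the lines and the probe sets. They were 118 and 102 with the probe set of largest SD, 20 and 15 without a filter, 23 and 20 with all 18 lines in the fit, 19 and 35 within DMEM/F-12, 3 and 2 within RPMI-1640, 618 and 495 without COLO320HSR and NCIH716, and 323 and 302 without RKO as well, an alternative chosen after seeing the data. The fits without 1 line gave 5 to 236 higher and 7 to 157 lower. Other scalings, background levels and variance models stayed within 1.5 times, although centring the arrays turned the split from 43 and 22 to 29 and 29. These fits called 50 to 65 of the 65 genes. The probe set of largest SD called 58 of the 65, the mean of all probe sets 36, no filter 33 and all 18 lines 32. EPM2AIP1 was lower and not called in every alternative, and the 13q and 20q medians moved by less than the spread between lines. Of the 87 other genes named, no called gene changed sign. Genes near 0 did: ACVR2A was 0.36 within RPMI-1640 and -0.25 to 0.047 over the fits without 1 line (positive without RKO, SW48, SNUC1, HT55 or CL40); within RPMI-1640 AURKA was 0.12, RPL22 0.072 and TGFBR2 0.73; MSH6 was 0.18 within DMEM/F-12, 0.16 without COLO320HSR and NCIH716, 0.021 without RKO too, and -0.24 to 0.046 over the fits without 1 line (positive without COLO320HSR); CDKN1A was -0.070 without RKO, COLO320HSR and NCIH716. No paired analysis was possible because replicate numbers only name lines in accession order. Values at or under 4.22 cannot be ordered.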

Other observations

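The 5 lines left out of the comparison have no status here, and their values for the 65 called genes are given as measured. RCM1 lay nearer the stable mean for 57 of the 65, CAR1 for 44, OUMS23 for 41, MDST8 for 36 and HUTU80 for 26. EPM2AIP1 was 8.31 in CAR1, 8.72 in MDST8, 8.77 in HUTU80, 9.02 in OUMS23 and 9.05 in RCM1, so none of them was near background. The median deviation of the 60 genes of 13q from their mean over the 13 compared lines was -0.54 in MDST8, -0.36 in HUTU80, -0.29 in CAR1 and -0.21 in OUMS23, and 0.12 in RCM1. Thus MDST8, HUTU80 and CAR1 lay within or below the range of the unstable lines for 13q and OUMS23 just above it, although OUMS23, CAR1 and MDST8 lay nearer the stable mean for most of the 65 genes.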
